A study of Homo sapiens with 18 samples.

Results

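PITPNB encodes the beta isoform of the class I phosphatidylinositol transfer proteins. The rows of both deposited site lists that carry this gene symbol gave 26 distinct U-tracts (runs of at least 5 uridines), out of 15024 distinct U-tracts in either list over all genes. The gene was selected on its number of listed U-tracts in both lists, so its counts and its place among other genes are a description and were not tested.

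The samples were from HEK293T, a human embryonic kidney cell line. Of the 18 samples, 10 were PAR-CLIP libraries made with an hnRNPC antibody and 8 were RNA-seq libraries. The PAR-CLIP libraries, which map protein contacts on RNA after crosslinking, were PARCLIP-MeRIP-IP and PARCLIP-MeRIP-Input from wild type cells, and hnRNPC-PAR-CLIP from METTL3 knockdown, METTL14 knockdown and wild type control cells. The RNA-seq libraries were from HNRNPC, METTL3 and METTL14 knockdown cells and from wild type control cells. Each of the 9 groups held 2 samples. How the knockdowns were made is not given in the sources used here.

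The values were 2 lists of sites with no value per sample, so depth is unknown and no comparison between conditions could be made for PITPNB. In each entry a U-tract stands beside an RRACH motif (the consensus for N6-methyladenosine, m6A) at a listed distance of at most 50 nt. The first list holds hnRNPC switch sites from PARCLIP-MeRIP (the switch list, 13378 distinct U-tracts). The other is called HCS by the submitters (the HCS list, 2748 distinct U-tracts) and also gives exon or intron. Neither the samples behind the HCS list nor the meaning of its name is given in the sources used here.

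As background, hnRNP C is an abundant nuclear protein that binds runs of uridines in unspliced RNA, and METTL3 with METTL14 writes m6A. In an m6A switch, the methyl group loosens a local RNA hairpin so that a U-tract that was paired becomes open to hnRNP C. The PITPNB protein carries phosphatidylinositol and phosphatidylcholine between membranes of the endoplasmic reticulum and the Golgi, and thereby helps to supply the phosphoinositide kinases there. Human PITPNB is spliced into forms that differ at the C terminus of the protein.

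PITPNB lies on the minus strand of chromosome 22, and both lists give its sites on 1 transcript, NM_012399, with positions in hg19. The switch list held 23 of its U-tracts and the HCS list held 8. Of these, 5 were in both lists, 18 in the switch list only and 3 in the HCS list only. All positions in the transcript below count along the unspliced RNA from its 5′ start, as the lists give them, so introns are included. Of the 23 switch U-tracts, 0 were also listed under another gene, against 294 of all 13378 switch U-tracts (2.20%), so a count of 0 is near the background.

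The exonic sites were at the 3′ end of the listed stretch, and they shared an RRACH motif at 28248378 to 28248382. A 7 nt U-tract at 28248413 to 28248419 ended 30 nt upstream of the motif. A 5 nt U-tract at 28248359 to 28248363 began 14 nt downstream of it. Both were exonic and were in both lists, about 66.8 and 66.9 kb from the transcript start. Another U-tract, 5 nt long at 28248329 to 28248333, began 44 nt downstream of the same motif and was in the switch list only, so its region was not given. This motif therefore had a U-tract on either side in both lists.

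The motif at 28269304 to 28269308, about 45.9 kb into the transcript, had the same arrangement in an intron. Its U-tracts, both 5 nt long, lay 8 nt upstream (28269317 to 28269321) and 11 nt downstream (28269288 to 28269292) of the motif. Both were in both lists. The last U-tract found in both lists was the 8 nt run at 28279976 to 28279983, an intronic site 14 nt upstream of its own motif and 35.3 kb into the transcript. For all 5 U-tracts in both lists, the lists named the same motif.

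The 3 U-tracts in the HCS list only were intronic. The one nearest to the transcript start in either list was 7 nt long at 28313580 to 28313586, 1.67 kb in, and lay 7 nt downstream of its motif. The next, also 7 nt long, was at 28308551 to 28308557, 34 nt downstream of its motif. The one nearest to the 3′ end was 5 nt long at 28250624 to 28250628, 14 nt upstream of its motif. The nearest switch U-tract was 1957, 2421 and 1424 nt away from them, in the same order.

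**Figure D1:**
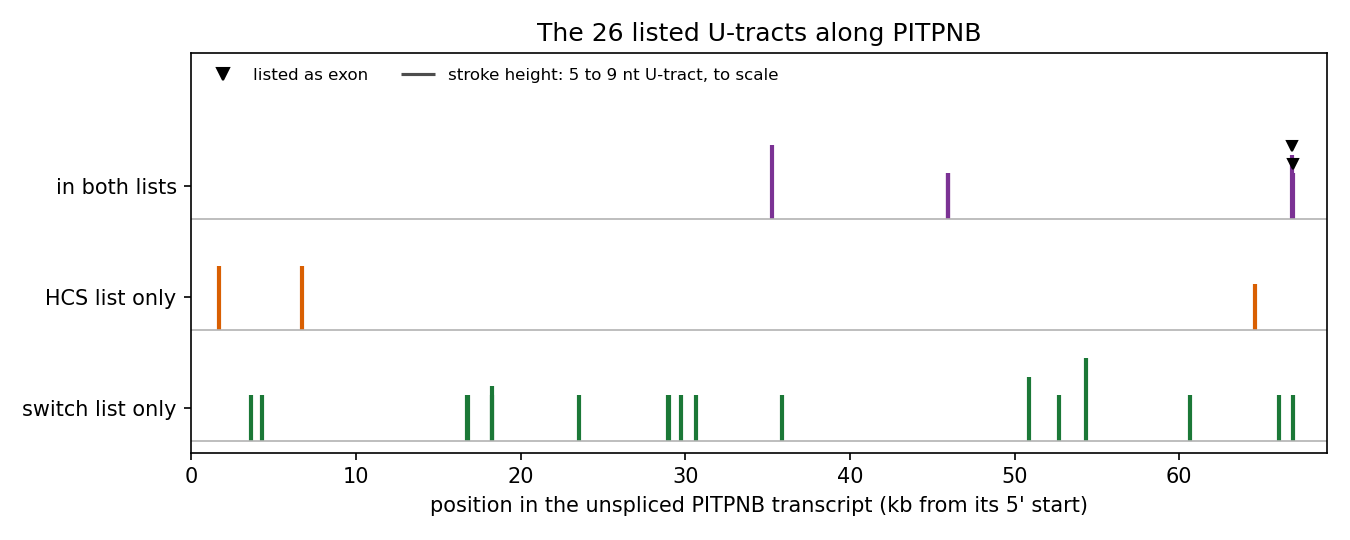
Position of each listed PITPNB U-tract (x axis, kb from the 5′ start of the unspliced transcript), in 3 rows by the list or lists that hold it. The height of a stroke is the length of the U-tract (5 to 9 nt), and black triangles mark U-tracts listed as exon. The 5 U-tracts in both lists start at 35.3 kb or later, and neighbours within 100 nt merge into 1 stroke at this scale.

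The 18 U-tracts in the switch list only were spread from 3.63 kb to 66.9 kb. Of these, 15 were 5 nt long, and the others were 6, 7 and 9 nt. The 9 nt run at 28260920 to 28260928 was the longest of the gene and lay 40 nt upstream of its motif. At the other end of the gaps, the U-tract at 28254605 to 28254609 directly adjoined a downstream motif (gap 0). The one at 28286293 to 28286297 overlapped its upstream motif by 1 base, which is written as a gap of -1.

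The spaces between sites along the transcript varied in length, and no expected spacing was computed. The longest stretch without a switch U-tract ran from 4276 to 16775 in the transcript, or 12498 nt, and 1 HCS U-tract lay in it. The longest stretch without an HCS U-tract was 28567 nt, from 6704 to 35272. Seen from the midpoint of the listed stretch, at 34.3 kb, the 3′ part held 12 switch U-tracts and 6 HCS U-tracts, of which 5 were the same. The 5′ part held 11 switch U-tracts and 2 HCS U-tracts, of which 0 were the same. The switch U-tracts were thus almost evenly divided, while those in both lists all lay in the 3′ part. These 5 used only 3 motifs, and U-tracts that share a motif necessarily lie close together. The midpoint was chosen after the positions were seen, and the difference was not tested.

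Neighbouring switch U-tracts were separated by a median of 1157.5 nt (9 to 12498 nt), and neighbouring HCS U-tracts by 5022 nt (24 to 28567 nt). Of the spaces between neighbours, 6 in the switch list and 2 in the HCS list were at most 100 nt. With U-tracts within 100 nt merged, 17 clusters remained in the switch list and 6 in the HCS list. Between its first and last switch U-tract, PITPNB held 3.63 of them per 10 kb. The 31 genes with at least 20 switch U-tracts had a median of 2.60 per 10 kb (0.812 to 9.21), and 6 of them were denser than PITPNB.

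The U-tracts of all 6 close pairs of the switch list were listed with the same RRACH motif as each other, which the limit of 50 nt keeps near each other. The 26 U-tracts used 20 distinct motifs, 17 in the switch list, 6 in the HCS list and 3 in both. In the switch list, 5 of the 17 PITPNB motifs had several U-tracts, against 15.3% of all 11445 motifs. Together they held 11 of its 23 U-tracts, against 27.6% of all switch U-tracts that share a motif. In the HCS list it was 2 of 6 motifs, against 2.65% of all 2676 motifs. They held 4 of its 8 U-tracts, against 5.24% of all HCS U-tracts. Motifs of 1 gene are few and are not replicates, so these shares were not tested.

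U-tracts on both sides of the motif were found at 3 of the 5 shared PITPNB motifs of the switch list. Over all genes this was so for 22.6% of the 1753 switch motifs with several U-tracts. Besides the exonic motif and the one at 45.9 kb, the remaining one was at 28298448 to 28298452. Its U-tracts, 5 nt each, lay 23 nt upstream (28298476 to 28298480) and 23 nt downstream (28298420 to 28298424), and neither was in the HCS list. At the other shared motifs both U-tracts were downstream. They began 14 and 29 nt past the motif at 28297019 to 28297023, and at a gap of -1 and 27 nt from the motif at 28286297 to 28286301.

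In the HCS list, both PITPNB motifs with several U-tracts had them on both sides, against 15.5% of the 71 such motifs over all genes. These 11 two-sided HCS motifs were spread over 10 genes, and PITPNB was the gene with 2. Of the 11, 3 were exonic, and 8 were two-sided in the switch list as well, both PITPNB motifs among them. For the switch list, 2 genes held more two-sided motifs than the 3 of PITPNB and 5 other genes held as many. The two-sided arrangement was singled out after the positions were seen.

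**Figure D2:**
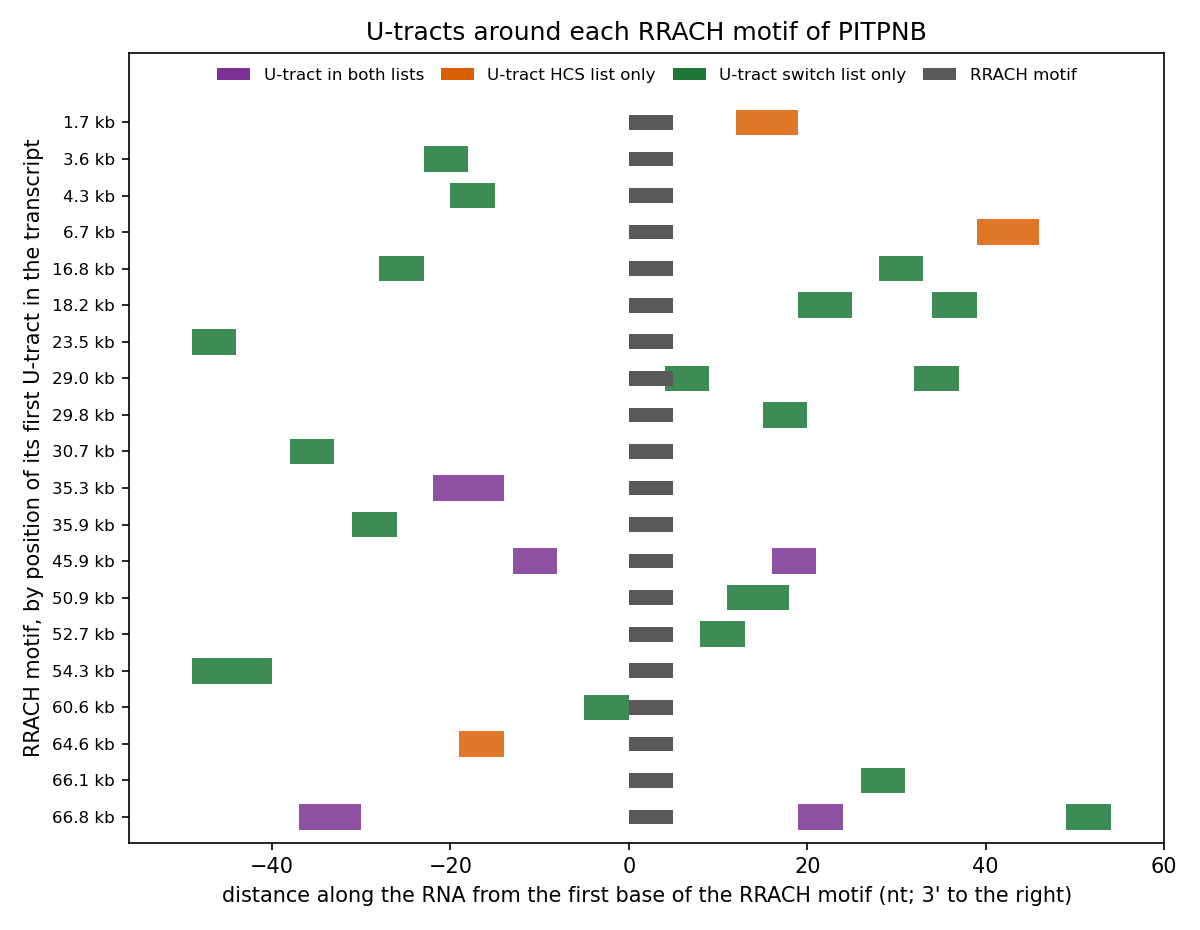
U-tracts of PITPNB drawn to scale around their RRACH motif (grey, first base at 0), with the 3′ direction to the right and 1 line for each of the 20 motifs, labelled by the transcript position of its first U-tract. Colours give the list or lists that hold the U-tract. Motifs at 16.8, 45.9 and 66.8 kb have U-tracts on both sides.

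The lengths and gaps of the PITPNB U-tracts were set beside those of all genes. In the switch list, 18 of its 23 U-tracts were 5 nt long (78.3%, exact binomial 95% interval 56.3% to 92.5%), against 63.7% over all switch U-tracts. In the HCS list it was 4 of 8 (50.0%, interval 15.7% to 84.3%), against 66.7% over all HCS U-tracts. The PITPNB intervals include the share over all genes in both lists. They cover counting error only, and the U-tracts of 1 transcript are not independent. U-tracts of 8 nt or more numbered 2 of 23 in the switch list, against 9.88% over all genes, and 1 of 8 in the HCS list, against 8.84%.

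The median edge-to-edge gap of the PITPNB U-tracts was 18 nt in the switch list (interval of the median 11 to 27 nt, n = 23), against 17 nt over all genes. In the HCS list it was 14 nt (interval 7 to 34 nt, n = 8), against 11 nt over all genes. Within the gene, U-tracts in both lists had a median gap of 14 nt (8 to 30 nt), those in the HCS list only 14 nt (7 to 34 nt), and those in the switch list only 22 nt (-1 to 44 nt). The ranges overlap, with the shortest and the longest gaps of the gene all among U-tracts in the switch list only.

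Gaps of at most 10 nt were found at 2 of the 8 HCS U-tracts of PITPNB (25%, exact binomial interval 3.19% to 65.1%), against 48.6% of all HCS U-tracts. In the switch list it was 6 of 23 (26.1%, interval 10.2% to 48.4%), against 34.4% over all genes. A downstream motif was listed for 4 of 8 HCS U-tracts, against 56.0% over all genes, and for 11 of 23 switch U-tracts (47.8%, interval 26.8% to 69.4%), against 59.7%. Each of these PITPNB intervals includes the share over all genes. At this number of sites, no difference from the lists as a whole was detectable in U-tract length, gap or side.

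**Figure D3:**
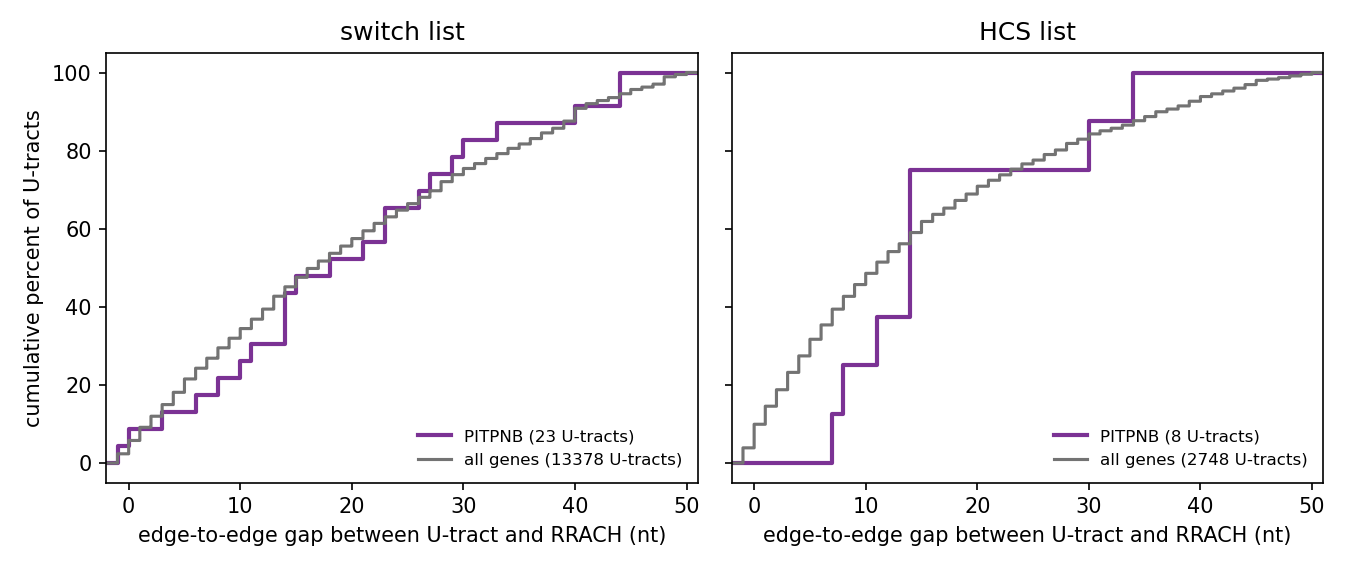
Cumulative percent of U-tracts (y axis) by edge-to-edge gap to the nearest listed RRACH motif (x axis, nt; negative values are overlaps), for PITPNB (purple) and all genes (grey) in the switch list (left) and the HCS list (right). The switch curves run close together (medians 18 and 17 nt), and the 8 HCS U-tracts of PITPNB begin at a gap of 7 nt.

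The gene was selected on its listed sites, so its share in both lists follows as a description only. Of its 8 HCS U-tracts, 5 were in the switch list (62.5%, exact binomial interval 24.5% to 91.5%), against 40.1% over all genes. Of its 23 switch U-tracts, 5 were in the HCS list (21.7%, interval 7.46% to 43.7%), against 8.24%. Exonic U-tracts made up 2 of its 8 HCS sites, against 17.0% over all genes. Of the 417 genes with an exonic HCS U-tract, 47 had at least 2. Nothing is read from these shares.

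Among the 4188 genes with a switch U-tract, 15 had more than PITPNB and 4 others had 23 as well, where the median gene had 2. Among the 1816 genes with an HCS U-tract, 1 had more and 2 others had 8, where the median gene had 1. The number of U-tracts in both lists was exceeded by 1 gene, PPP4R2, a regulatory subunit of protein phosphatase 4, with 6. KANSL1, part of a histone acetyltransferase complex, equalled the 5 of PITPNB. Of the 45 genes with at least 5 HCS U-tracts, 7 had a higher share of them in the switch list than PITPNB, and the median share over the 45 was 40.0%.

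The genes most like PITPNB were taken by the sum of the differences in switch U-tracts, HCS U-tracts and U-tracts in both lists. The 5 nearest all differed from it by 4 in sum. KANSL1 held 20 switch U-tracts and 7 HCS U-tracts. LUC7L2, a splicing factor of the U1 snRNP, held 23 and 6, with 3 in both lists. PPP4R2 held 22 and 6, and PPP6R3, a regulatory subunit of protein phosphatase 6, held 22 and 6 with 4 in both. SFMBT2, a Polycomb-group gene, held 21 and 8 with 3 in both. PITPNB held 2 exonic HCS U-tracts, KANSL1 and LUC7L2 held 1 each, and the other 3 genes held 0. PITPNB was also the densest of the 6, with 3.63 switch U-tracts per 10 kb, against 3.34 for PPP4R2 and 1.23 for SFMBT2. Merging switch U-tracts within 100 nt left similar numbers of clusters. There were 17 in PITPNB and PPP4R2, 18 in KANSL1, PPP6R3 and SFMBT2, and 19 in LUC7L2.

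**Figure D4:**
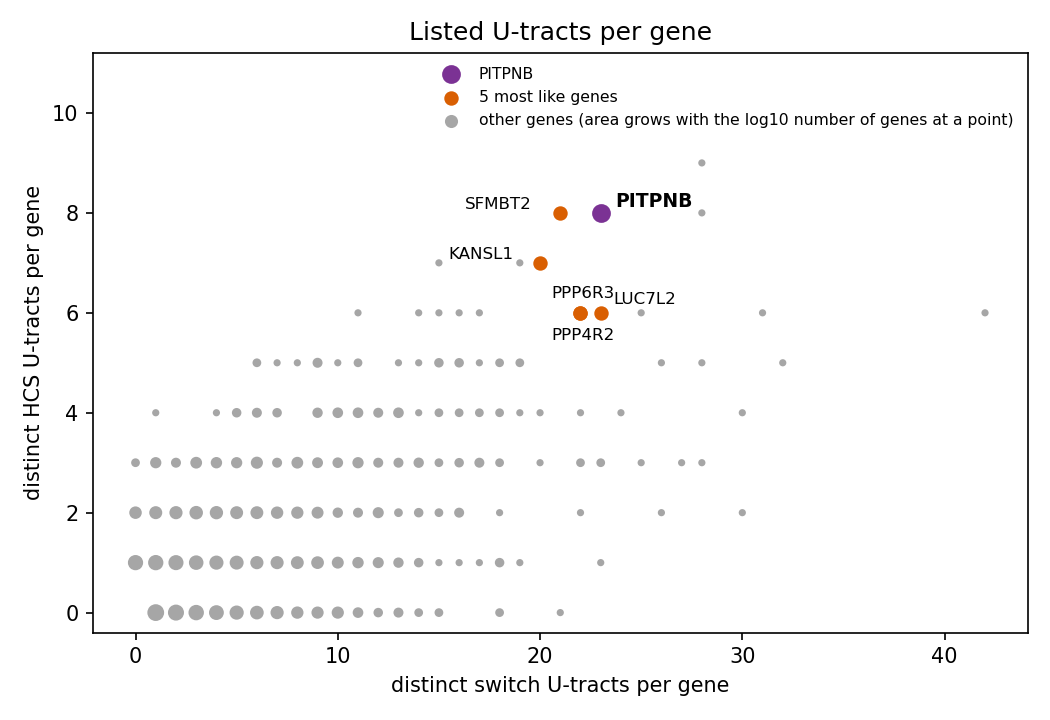
Distinct HCS U-tracts (y axis) against distinct switch U-tracts (x axis) for every gene of either list. PITPNB (purple) has 23 switch and 8 HCS U-tracts, the 5 most like genes (orange) have 20 to 23 and 6 to 8, and PPP4R2 and PPP6R3 fall on the same point.

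Genes of the same biochemistry were counted in the same way. Of the 16 phosphatidylinositol transfer and Sec14-like genes listed, 3 had a switch U-tract. An HCS U-tract was found in 1 of those 3 (33.3%), against 36.6% of all genes with a switch U-tract. That gene was PITPNB, which was selected on its listed sites, so nothing is read from this share. PITPNA, the alpha isoform and closest relative of PITPNB, held 4 switch U-tracts on the minus strand of chromosome 17 and 0 HCS U-tracts. They lay at 1463961 to 1463965, 1458900 to 1458904, 1425038 to 1425042 and 1424946 to 1424952, all upstream of their motif, with gaps of 13, 33, 32 and 10 nt. SEC14L1, a Sec14-domain protein, held 2 switch U-tracts on chromosome 17 and 0 HCS U-tracts.

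Of the 40 genes of phosphoinositide synthesis and turnover, 19 had a switch U-tract, and 8 of those 19 (42.1%) had an HCS U-tract, against the same 36.6%. PIP5K1A, a kinase that makes phosphatidylinositol 4,5-bisphosphate, held 6 switch U-tracts and 3 HCS U-tracts. SACM1L, the Sac1 phosphatase that removes phosphatidylinositol 4-phosphate, held 7 and 2. OCRL, an inositol polyphosphate 5-phosphatase at the Golgi and endosomes, held 6 and 2, with both HCS U-tracts in the switch list. MTMR3, a myotubularin phosphatase on chromosome 22 like PITPNB, held 4 and 2, with 0 in both lists. The 19 genes had a median of 3 switch U-tracts, against 2 over all genes with one, and the highest number among them was the 7 of SACM1L.

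Of the 29 genes of lipid exchange and coat assembly at the Golgi and at membrane contacts, 15 had a switch U-tract and 6 of those 15 (40.0%) had an HCS U-tract, against the same 36.6%. VAPA, a tether of the endoplasmic reticulum that docks lipid transfer proteins, held 3 switch U-tracts and 2 HCS U-tracts. COPA, a subunit of the COPI coat, held 7 and 1. GBF1, an exchange factor for Golgi Arf proteins, held 6 and 1, and ESYT2, a tether to the plasma membrane, held 4 and 1. Over the whole group, 2 of 9 HCS U-tracts were also in the switch list, against 40.1% of all HCS U-tracts, and those 2 were in genes other than these 4. The 15 genes had a median of 3 switch U-tracts, against 2 over all genes with one. The highest number among them was the 11 of VAPB, which held 0 HCS U-tracts. In this group and in the phosphoinositide group, the shares of genes with an HCS U-tract were near the 36.6% of all genes.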

How the data were processed

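The members were the rows of the authors' 2 deposited lists with the symbol PITPNB. The members and the gene lists were chosen with earlier results of these data known. The PAR-CLIP samples were processed with Bowtie 1.0.0 and Trimmomatic on hg19, per the submitters' processing notes. How sites were called, and whether samples were pooled, is not given in the sources used here. Positions, U-tract lengths and distances are in nt, per the file headers.

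Entries (17352 and 2798) were reduced to distinct U-tracts by chromosome, strand, start and end, and 3 Y chromosome copies of X chromosome sites were dropped. Missing symbols were looked up by transcript in RefSeq (GRCh38.p14, names only; 753 of 756 and 4 of 4 found). Gaps were measured edge to edge. They equal the listed distance where the motif is downstream and are 5 nt shorter where it is upstream, which was checked in every entry. Where a U-tract had several motifs, the smallest gap was used. Gap and merging steps were tested on simulated sites. Shares have exact Clopper-Pearson intervals and medians have binomial order-statistic intervals, at 95%. No value per sample exists in these lists, so no test was run and depth is unknown. Named genes were PITPNB, its family members with a site, up to 4 genes per other list with the most HCS U-tracts, and the 5 most like genes. No hg19 sequence was used here, so U-tracts and motifs are given by position and length, and GGACU was not told from other RRACH motifs. The software was pandas 2.3.3 and scipy 1.17.1 under Python 3.11.15, with figures drawn in matplotlib 3.10.9.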

Additional observations from a re-analysis of the deposited data

How the results depend on the processing

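All 28 alternatives left the PITPNB values within 1.5 times (counts) or within the interval of the main value (shares and medians). Those that use list entries could not differ, because each PITPNB U-tract had 1 entry per list. The intervals are wide, so staying within them is a weak check. Counting list entries, taking rows by transcript, or taking all rows within the span on the strand gave the same 23 switch and 8 HCS U-tracts. Counting motifs, or merging U-tracts within 100 or 200 nt, gave 17 and 6, and merging within 50 nt gave 18 and 6. The HCS share in the switch list was 62.5% by shared bases or a switch U-tract within 100 nt, and 50.0% counted over motifs. The median gap was 14 nt in both lists with 1 U-tract per motif, and the median listed distance was 19 nt (switch) and 15 nt (HCS). With the longest U-tract per motif, 70.6% of switch and 33.3% of HCS U-tracts were 5 nt long. No paired analysis was possible because the lists hold no value per sample, so no replicate could be left out either. With 8 HCS U-tracts the intervals are wide, and the effect of read depth on which sites were listed was not measured.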

Other observations

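A pair of PITPNB U-tracts fell on the most frequent gaps of the switch list. They were 1 of its 11 switch U-tracts with a downstream motif and 1 of its 12 with an upstream motif. At these numbers nothing about the gene is read from them. The 9 nt U-tract at 28260920 to 28260928 lies 40 nt upstream of its motif, the gap held by the most U-tracts with a downstream motif (381 of 7991 U-tracts). The overlap by 1 base at 28286293 to 28286297 is the most frequent gap with an upstream motif (317 of 5387 U-tracts). The other U-tracts in the switch list only had gaps held by 47 to 262 switch U-tracts of the same side. Both were in the switch list only, as were most switch U-tracts of all genes, of which 8.24% were in the HCS list.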
